A study of Homo sapiens with 24 samples.

Results

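The CXC chemokine genes described here are 10 rows of the count files, chosen by symbol: CXCL1, CXCL2, CXCL3, CXCL5, CXCL6, CXCL8, CXCL10, CXCL11, CXCL12 and CXCL16. They are 10 of the 25702 Entrez identifiers counted, and all 10 passed the filter on low counts. The counts came from stranded mRNA-seq of IMR90 cells, a line of normal human lung fibroblasts, at passages 23 to 28. Every culture, controls included, had been infected with ER:HRAS(G12V), an oncogenic RAS fused to an oestrogen receptor domain that 4-hydroxytamoxifen (4OHT) switches on. Growing cells carried an empty MSCV vector and had no agent. The shHMGA1 cells carried MSCV miR30 shHMGA1, a single hairpin against the chromatin protein gene HMGA1, and had no agent. RIS cells (RAS-induced senescence) were vector cells treated with 4OHT for 6 days, and RIS+shHMGA1 cells were hairpin cells treated in the same way. Each group had 6 biological replicates, and no vehicle is named, so 4OHT itself and active RAS cannot be told apart.

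CXC chemokines are small secreted proteins with a single residue between the first conserved cysteines. Those with an ELR motif before the cysteines (CXCL1, CXCL2, CXCL3, CXCL5, CXCL6 and CXCL8) attract neutrophils through the receptors CXCR1 and CXCR2. CXCL10 and CXCL11 are induced by interferon and attract T cells through CXCR3. CXCL12 is a homeostatic chemokine of stromal cells that binds CXCR4 and ACKR3, and CXCL16 is made as a membrane protein that ADAM10 and ADAM17 shed. In senescent fibroblasts the ELR chemokines belong to the senescence-associated secretory phenotype (SASP), which IL1 and the factors NF-kappaB and C/EBP-beta drive.

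The 6 ELR genes and the CXCL10 and CXCL11 pair lie in separate clusters on chromosome 4, and the promoters of the first cluster carry the same NF-kappaB-type site. In GRCh37, the build that the files use, CXCL8 (Entrez 3576) lies at chr4:74606236-74609433, CXCL6 (6372) at chr4:74702357-74714781, CXCL1 (2919) at chr4:74735110-74737025, CXCL5 (6374) at chr4:74861359-74864394, CXCL3 (2921) at chr4:74902306-74904524 and CXCL2 (2920) at chr4:74962757-74964913. CXCL10 (3627) lies at chr4:76942271-76944650 and CXCL11 (6373) at chr4:76954835-76962568. CXCL12 (6387) is at chr10:44865613-44881941 and CXCL16 (58191) at chr17:4636828-4643223. Of these, CXCL1, CXCL6 and CXCL8 are on the plus strand and the others on the minus strand. CXCL1, CXCL2 and CXCL3 are close copies: 5.33%, 10.1% and 5.26% of the 50-base windows of their canonical transcripts recur in another of the 3 genes, so that the division of reads between them is less certain than for the other members, where the share was at most 1.17%.

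The promoter stretches that follow are shown because all 6 share a site, and because those of CXCL5 and CXCL6 are close in sequence while their fold changes differ. They are RefSeq sequences of 9 of the 10 genes' starts matched exactly to GRCh37; for the ELR genes, the bases 150 to 41 before the start are given, 5′ to 3′ on the gene's strand. These starts are those of the canonical GENCODE transcripts, while the gene limits given above are set by longer transcripts for some genes. So 78 of the CXCL3 bases and 10 of the CXCL8 bases shown lie inside the annotated gene, and the stretches of the other 4 ELR genes lie outside theirs. Capitals mark matches, on either strand, to the NF-kappaB core GGNNNTTCC or the AP-1 motif TGANTCA.
CXCL1 (chr4:74734960-74735069, plus strand): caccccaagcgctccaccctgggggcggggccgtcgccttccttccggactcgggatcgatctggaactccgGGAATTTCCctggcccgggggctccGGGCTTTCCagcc
CXCL2 (chr4:74964953-74965062, minus strand): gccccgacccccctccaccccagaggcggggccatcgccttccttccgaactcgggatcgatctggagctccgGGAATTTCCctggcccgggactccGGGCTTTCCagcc
CXCL3 (chr4:74904447-74904556, minus strand): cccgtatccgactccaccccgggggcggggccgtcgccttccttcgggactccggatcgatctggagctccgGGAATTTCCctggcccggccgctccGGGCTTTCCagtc
CXCL5 (chr4:74864435-74864544, minus strand): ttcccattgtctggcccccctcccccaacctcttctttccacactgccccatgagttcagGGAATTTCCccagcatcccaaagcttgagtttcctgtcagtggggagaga
CXCL6 (chr4:74702245-74702354, plus strand): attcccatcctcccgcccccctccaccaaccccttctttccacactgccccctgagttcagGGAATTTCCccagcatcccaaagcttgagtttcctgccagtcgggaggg
CXCL8 (chr4:74606136-74606245, plus strand): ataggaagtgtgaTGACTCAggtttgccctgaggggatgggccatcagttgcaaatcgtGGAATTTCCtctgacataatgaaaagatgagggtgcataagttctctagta

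All 6 hold the letters GGAATTTCC, starting between 77 and 91 bases before the start, a run found in 117 (0.428%) of 27305 human promoters searched over 250 bases on both strands. CXCL1, CXCL2 and CXCL3 have a second match, GGGCTTTCC, from 53 to 45 bases before the start. Aligned end to end, the CXCL5 and CXCL6 stretches shared 99 of 111 positions (89.2%), and those of CXCL1, CXCL2 and CXCL3 shared 85.8% to 88.3%, while CXCL8 shared 43.8% to 46.5% with the other 5. The NF-kappaB core was also found in CXCL10 and CXCL11, hence in 8 members, against 17.1% of all promoters. CXCL10, shown over 130 bases that begin 230 bases before its start with the interferon-response core GAAANNGAA also in capitals, carries both kinds of letters.
CXCL10 (chr4:76944751-76944880, minus strand): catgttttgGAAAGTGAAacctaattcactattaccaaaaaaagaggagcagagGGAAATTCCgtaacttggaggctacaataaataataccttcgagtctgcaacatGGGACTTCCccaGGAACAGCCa

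The interferon-response core was also present in CXCL2 and CXCL3 (7.06% of all promoters), the AP-1 motif in CXCL8 and CXCL11 (6.6%) and the C/EBP motif TTGCNNAA in CXCL2 (9.13%). None of the 4 motifs was found in the 250 bases before CXCL12. These are matches of letters, not measured sites.

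Between 8698070 and 23103424 reads were assigned to genes in each library (median 10604084). HMGA1 ranged from 639 to 861 CPM (counts scaled to library size, with TMM factors) in growing and from 54.4 to 143 CPM in shHMGA1 cells, 6.79-fold lower (log2 fold change −2.76 ± 0.31 SE, FDR = 1.9e-05). It was 4.15-fold lower in RIS+shHMGA1 than in RIS (FDR = 6.5e-04). In numbers 5 and 6 HMGA1 was at 54.4 to 58.1 CPM in shHMGA1 and 60 to 75.1 CPM in RIS+shHMGA1, below numbers 1 to 4 (98.7 to 143 and 197 to 262 CPM). Defining leukocyte and epithelial markers were close to 0: the 8 leukocyte genes summed to 0.957 to 3.43 CPM, 3 of them had no count in any sample, and the 6 epithelial genes summed to at most 1.35 CPM. The 11 fibroblast markers summed to 14427 to 40405 CPM in untreated and 4728 to 9279 CPM in treated cells, growing replicate 4 and RIS replicate 2 left out. Of the 6 endothelial markers, 2 passed the filter and moved in opposite directions in RIS+shHMGA1 against shHMGA1: TEK had a log2 fold change of −2.42 ± 0.43 (69.9 to 123 CPM in shHMGA1) and CLDN5 one of 5.40 ± 1.29 (at most 0.18 CPM in shHMGA1 and 1.3 to 7.73 CPM in RIS+shHMGA1). The part of these markers in the chemokine values was not tested.

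Growing replicate 4 and RIS replicate 2 stood apart from their labels. The root mean square distance of growing replicate 4, in log2 CPM over the genes tested, was 1.33 from the median of the other growing samples and 0.326 from that of RIS+shHMGA1; RIS replicate 2 was 1.14 from the other RIS samples and 0.282 from growing. Their HMGA1 levels, 667 and 713 CPM, were those of vector cells. Each result is therefore given with all 24 samples, the main fit, and with these libraries left out (22 samples). The 2 libraries were picked from their expression in these same data. In comparisons that hold them, the 22-sample calls and separate ranges therefore depend in part on that choice.

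CXCL8, the neutrophil attractant also named interleukin 8, had by far the most reads of the 10 genes and took up to 6.07% of all counts in a library. Its level was 1248 CPM at the lowest, 2440 at the median and 7332 at the highest in 5 growing samples, with 50421 CPM in growing replicate 4. It was 5599, 6509 and 9692 CPM in shHMGA1. In 5 RIS samples it was 11197, 26732 and 34386 CPM, with 1474 in RIS replicate 2, and in RIS+shHMGA1 38650, 69269 and 82448 CPM. Leaving out both libraries, the 4 groups rose in the order growing, shHMGA1, RIS and RIS+shHMGA1, and only growing and shHMGA1 overlapped. In bulk RNA, more cells that express a gene and more RNA per cell cannot be told apart.

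**Figure D1:**
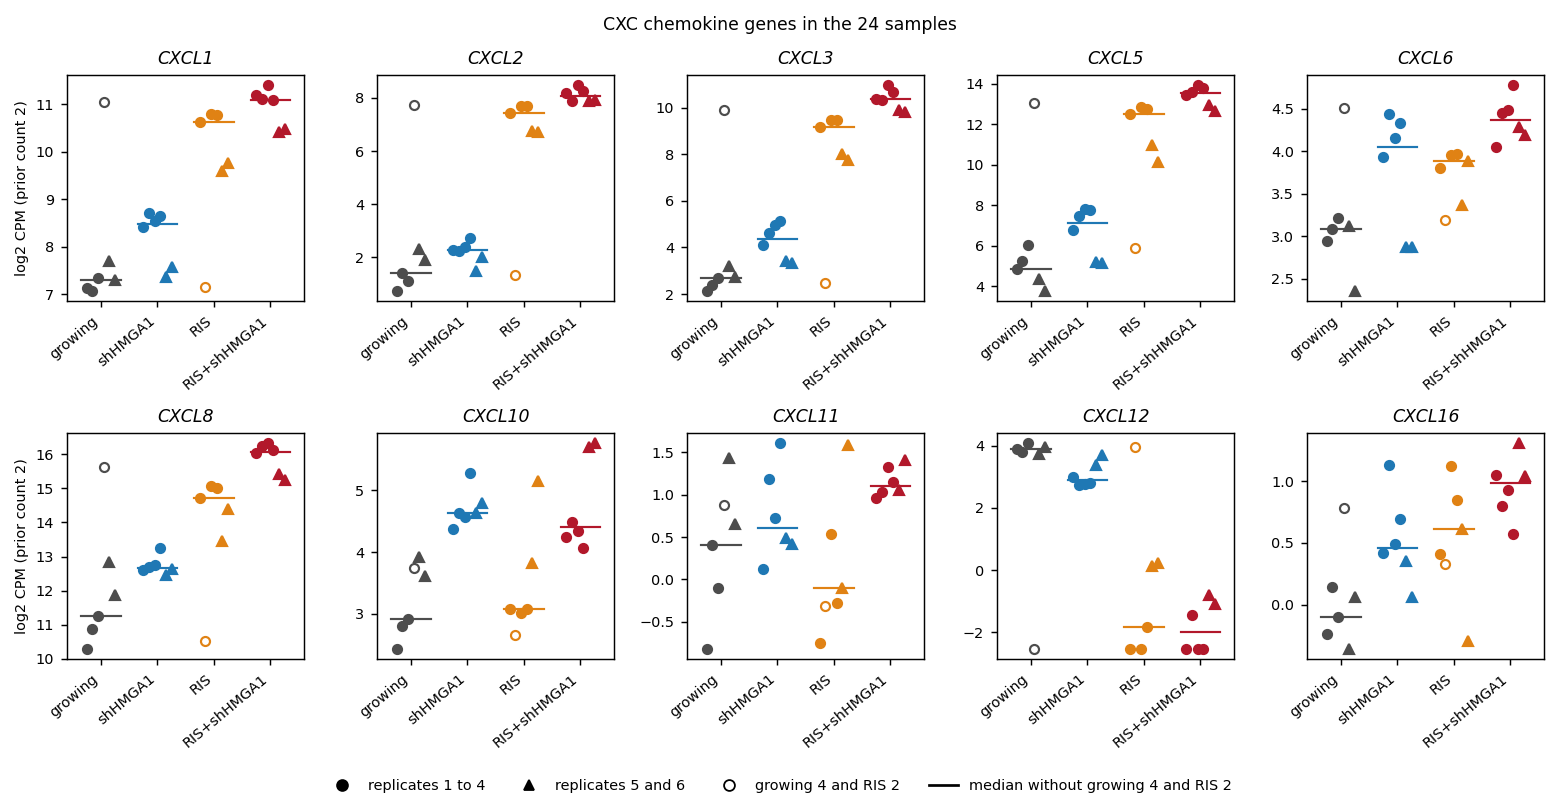
Level of each of the 10 CXC chemokine genes in every sample, as log2 CPM with a prior count of 2 (y axis, own scale per gene) by group (x axis). Filled circles are replicates 1 to 4, triangles replicates 5 and 6, open circles growing replicate 4 and RIS replicate 2, and bars the group medians without these 2 libraries; CXCL8, CXCL5, CXCL3, CXCL2 and CXCL1 are high in RIS and RIS+shHMGA1, CXCL12 is low there, and the open circles lie at the opposite level.

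Per kilobase of canonical transcript, the scale on which genes can be compared, CXCL8 stood at a median rank of 21 among 21241 genes in 5 growing samples, 5 in shHMGA1, and 2 in both 5 RIS samples and RIS+shHMGA1. Growing replicate 4 had it at rank 2 and RIS replicate 2 at rank 28. It ranked second in every RIS+shHMGA1 sample, at 23538 to 50212 CPM per kb. In the 5 growing samples it was followed by CXCL1 (median 133 CPM per kb) and CXCL5 (12), with no overlap between these 3, whereas CXCL12, CXCL10, CXCL3 and CXCL6 (7.67 to 5.44 CPM per kb) overlapped in that order. In RIS+shHMGA1 the order was CXCL8 (42186), CXCL5 (4802), CXCL1 (1872), CXCL3 (1220), CXCL2 (240), CXCL10 (18), CXCL6 (13.3), CXCL11 (1.34), CXCL16 (0.779) and CXCL12 (0.051 CPM per kb), where CXCL1 overlapped with CXCL3, and CXCL10 with CXCL6. CXCL5, at median rank 4451 in 5 growing samples, was at 19 in 5 RIS samples and 12.5 in RIS+shHMGA1, with rank 15 in growing replicate 4 and 2444 in RIS replicate 2.

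Together the 10 genes held a median of 0.296% of the counts in 5 growing samples (0.158% to 0.84%), 0.791% in shHMGA1 (0.674% to 1.13%), 3.38% in 5 RIS samples (1.58% to 4.2%) and 6.82% in RIS+shHMGA1 (4.44% to 7.6%). Growing replicate 4 had 5.29% and RIS replicate 2 had 0.194%. CXCL8 made up a median of 90% of these counts in growing and 80.8% in RIS+shHMGA1. CXCL5 went from a median of 0.00318% of all counts in growing to 0.924% in RIS+shHMGA1.

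**Figure D2:**
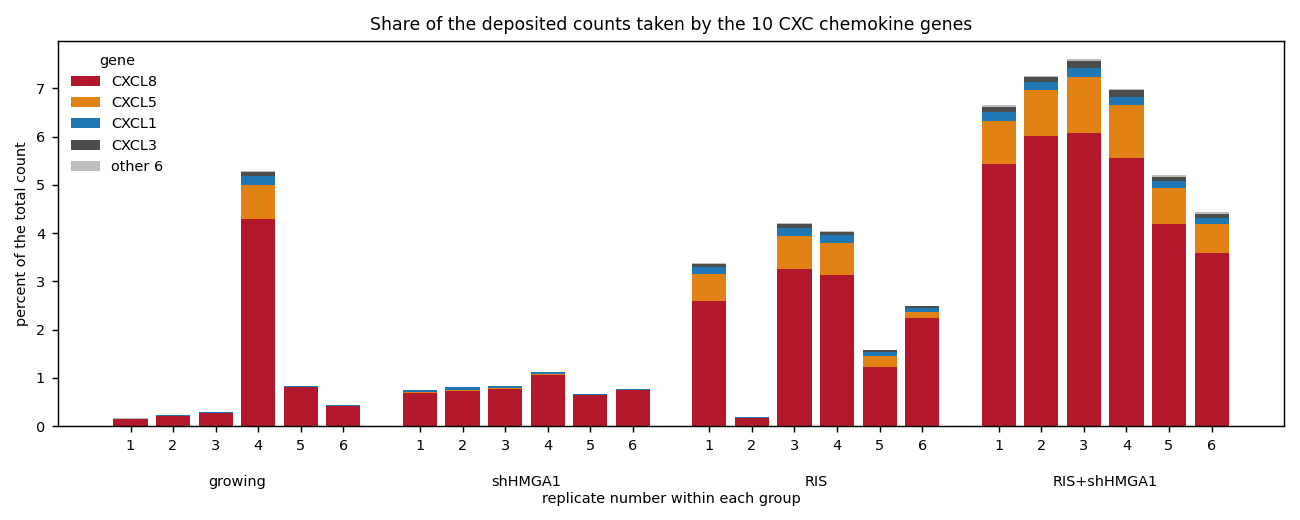
Percent of the total deposited count (y axis, from 0) taken by the 10 CXC chemokine genes in each sample (x axis, replicate number within each group), stacked by gene (CXCL8, CXCL5, CXCL1, CXCL3 and the other 6 summed). CXCL8 is the largest part of every bar, RIS+shHMGA1 bars reach 4.44% to 7.6%, and growing replicate 4 (5.29%) and RIS replicate 2 (0.194%) differ from the rest of their groups.

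The first comparison asks what 4OHT and active RAS did to these genes in hairpin cells, where no library stood apart. In RIS+shHMGA1 against shHMGA1, 6 of the 10 genes were called (FDR under 0.01 and absolute log2 fold change over 0.58), 5 higher and 1 lower, beside 39.1% of all 13356 genes tested. The 5 were the ELR genes other than CXCL6. CXCL12 was the gene that fell. CPM ranges did not overlap for the same 6 genes, beside 43.4% of all genes, so the number of calls is to be read against a change of a large part of the transcriptome. With 22 samples in the fit the same 6 were called, beside 44.4%.

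CXCL5, a neutrophil attractant, had the largest fold change. It was 36, 143 and 222 CPM (lowest, median and highest) in shHMGA1 and 6455, 11696 and 15714 CPM in RIS+shHMGA1, without overlap. The log2 fold change was 6.41 ± 1.51 (SE, FDR = 0.0014), or 85-fold. CXCL3 went from 9.81, 21 and 34.7 CPM to 900, 1311 and 2022 CPM, a log2 fold change of 5.99 ± 1.33 (FDR = 9.7e-04). CXCL2 went from 2.64, 4.64 and 6.48 CPM to 237, 268 and 360 CPM, a log2 fold change of 5.94 ± 1.16 (FDR = 4.1e-04). Each of the 6 treated libraries stood above all 6 untreated ones for these 3 genes.

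CXCL8 and CXCL1, which were already abundant in untreated cells, rose by smaller factors. CXCL8 had a log2 fold change of 3.20 ± 0.76 (FDR = 0.0015), about 9.18-fold. CXCL1, also named GRO-alpha, was 164, 357 and 417 CPM in shHMGA1 and 1369, 2197 and 2712 CPM in RIS+shHMGA1, a log2 fold change of 2.70 ± 0.66 (FDR = 0.0018). Without growing replicate 4 and RIS replicate 2, which are not part of this contrast but enter the estimate of the spread, the values hardly moved (5.95 for CXCL2 and 6.00 for CXCL3) and the SEs of the 5 ELR genes were 0.26 to 0.58.

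CXCL6, whose promoter stretch nearly equals that of CXCL5, was not called. It was 7.12, 16.4 and 21.6 CPM in shHMGA1 and 16.4, 20.5 and 27.3 CPM in RIS+shHMGA1, with overlapping ranges and a log2 fold change of 0.50 ± 0.30 (FDR = 0.14). CXCL10 was 20.6, 24.8 and 38.6 CPM in shHMGA1 and 16.7, 21.1 and 54.6 CPM in RIS+shHMGA1 (log2 fold change 0.21 ± 0.39, FDR = 0.65), and the ranges overlapped. CXCL11 was at most 2.88 CPM and CXCL16 at most 2.31 CPM in any sample, with log2 fold changes of 0.36 ± 0.40 and 0.47 ± 0.25 that did not pass (FDR = 0.43 and 0.11). At 9 to 24 counts of CXCL16 per library in these groups, counting error alone is a large part of the spread.

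CXCL12 was nearly undetected after 4OHT. Counts were 75 to 178 per library in shHMGA1 (6.48, 7.28 and 12.9 CPM) and 0, 2, 0, 0, 4 and 3 in RIS+shHMGA1, in order of replicate number. The fitted log2 fold change was −5.65 ± 1.24 (FDR = 8.7e-04), and it rests on 9 counts in all in RIS+shHMGA1. No library of one group reached the range of the other.

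The same question in vector cells depends on the 2 libraries. In RIS against growing with all 24 samples, edgeR called 0 of the 10 genes, beside 0% of the 13356 tested. DESeq2 also called 0 of the 10, beside 6.21% of all genes, and limma voom with sample weights called 7, beside 47.3%. In edgeR 2 genes (CXCL12 and CXCL16) were under an unadjusted p of 0.05. Without growing replicate 4 and RIS replicate 2, 7 of the 10 were called, 6 higher and 1 lower, beside 39.7% of 13416 genes. CPM ranges did not overlap for the same 7, beside 35.2% of genes. Both libraries lay with the opposite group, so leaving them out itself favours calls and separate ranges here.

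In the 22 samples CXCL5 was, in ascending order, 13.7, 20.4, 29.1, 38.7 and 65.1 CPM in growing and 1110, 2022, 5779, 6771 and 7375 CPM in RIS, a log2 fold change of 7.11 ± 0.66 (FDR = 2.1e-09), against 1.43 ± 1.22 with all samples (FDR = 0.42). Growing replicate 4 had 8425 CPM and RIS replicate 2 had 60.5 CPM. CXCL3 was 4.24 to 9.14 CPM in growing and 218 to 714 CPM in RIS, a log2 fold change of 6.32 ± 0.43 (FDR = 1.2e-11), against 1.34 ± 1.09 with all samples. For CXCL2, at 1.51 to 4.79 CPM in growing and 104 to 210 CPM in RIS, it was 5.86 ± 0.29 (FDR = 4.0e-14), against 1.86 ± 0.96. In all 3 genes the 2 libraries lay inside or beyond the range of the opposite group.

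CXCL1 was 134 to 206 CPM in growing and 774 to 1772 CPM in RIS, a log2 fold change of 3.08 ± 0.29 (FDR = 2.1e-09) in 22 samples and 1.24 ± 0.63 (FDR = 0.17) in 24. The log2 fold change of CXCL8 was 2.93 ± 0.38 (FDR = 4.7e-07) in 22 samples and 0.93 ± 0.70 (FDR = 0.36) in 24. CXCL6 was 4.96 to 9.16 CPM in growing and 10.2 to 15.5 CPM in RIS, a log2 fold change of 0.84 ± 0.25 (FDR = 0.006) in 22 samples and 0.37 ± 0.30 (FDR = 0.40) in 24. It passed here with the smallest change of the 6 ELR genes.

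CXCL12 had 373, 177, 221, 150 and 177 counts in growing replicates 1, 2, 3, 5 and 6 and 0, 0, 1, 11 and 11 counts in RIS replicates 1, 3, 4, 5 and 6. Growing replicate 4 had 0 and RIS replicate 2 had 169. The log2 fold change was −5.09 ± 0.42 (FDR = 3.5e-10) in 22 samples and −2.08 ± 0.84 (FDR = 0.088) in 24. CXCL10 (0.70 ± 0.41, FDR = 0.14), CXCL11 (0.05 ± 0.44, FDR = 0.92) and CXCL16 (0.83 ± 0.27, FDR = 0.011) did not pass in 22 samples; with 24 the log2 fold change of CXCL11 was −0.19 ± 0.42 (FDR = 0.77).

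**Figure D3:**
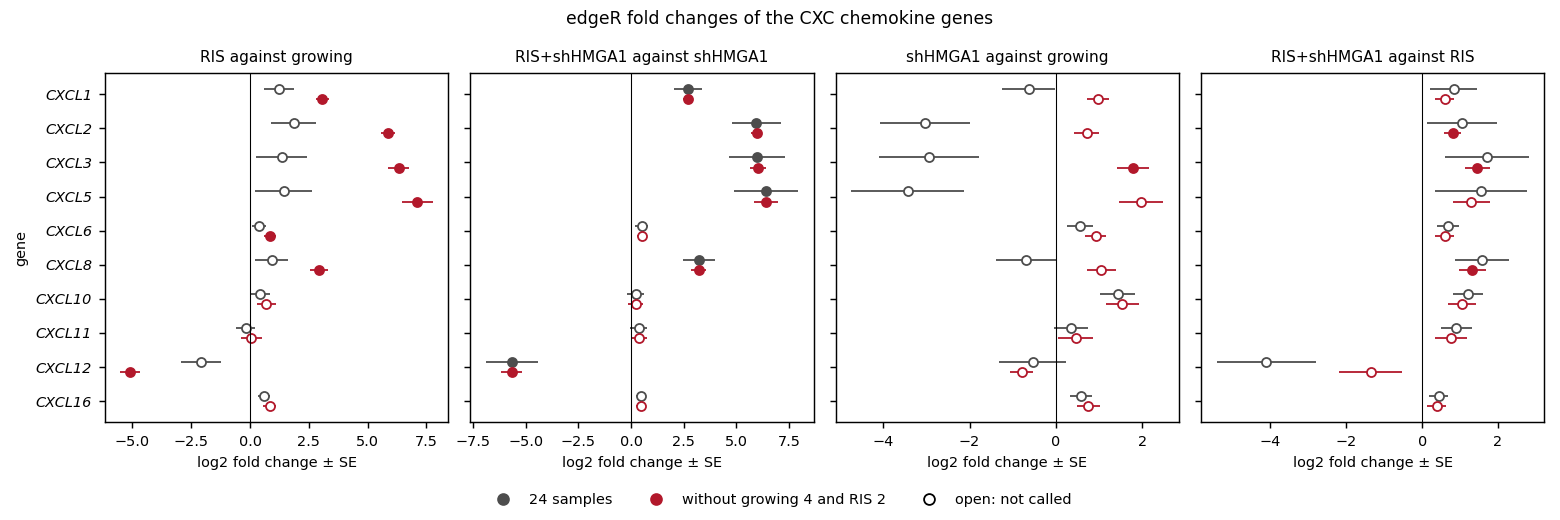
edgeR log2 fold changes with SE (x axis, own scale per panel) of the 10 CXC chemokine genes (y axis) in 4 comparisons, with all 24 samples (grey) and without growing replicate 4 and RIS replicate 2 (red); filled points were called. In hairpin cells both fits give the same values, in vector cells 7 genes are called only without the 2 libraries, and for the hairpin in untreated cells CXCL1, CXCL2, CXCL3, CXCL5 and CXCL8 change sign.

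The hairpin was compared next, without and with 4OHT. In shHMGA1 against growing with 24 samples, edgeR called 0 of the 10 genes, beside 0.27% of all genes, with 5 under an unadjusted p of 0.05. DESeq2 called 0, beside 0.741%, and limma voom with sample weights 4, beside 6.33%. Without the 2 libraries 1 was called, beside 2.59%. This was CXCL3, at 4.24 to 9.14 CPM in growing and 9.81 to 34.7 CPM in shHMGA1, a log2 fold change of 1.78 ± 0.37 (FDR = 0.0036). With all samples it was −2.94 ± 1.16 (FDR = 0.27). CPM ranges did not overlap in the 22 samples for CXCL3 and CXCL10, both higher in shHMGA1, and for CXCL12, lower, beside 6.87% of genes. As a share of the total count CXCL12 did overlap, at 0.00144% to 0.00184% in growing and 7.17e-04% to 0.0015% in shHMGA1. CXCL10 was 5.24 to 15 CPM in growing and 20.6 to 38.6 CPM in shHMGA1, a log2 fold change of 1.54 ± 0.39 (FDR = 0.013), short of the threshold.

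Among these 22 samples, same-numbered samples of both hairpin comparisons deviated together, and a fit with the replicate number as a block called 3 genes in shHMGA1 against growing, beside 3.61%. They were CXCL3 (1.50 ± 0.27, FDR = 0.0013), CXCL5 (1.73 ± 0.23, FDR = 1.3e-04) and CXCL10 (1.67 ± 0.27, FDR = 6.4e-04). Numbers 1 to 4 and numbers 5 and 6 gave different values. In numbers 1 to 4, without growing replicate 4, the log2 fold change of CXCL8 was 2.01 (FDR = 4.3e-06) and that of CXCL1 was 1.41 (FDR = 4.9e-07). In numbers 5 and 6 alone they were 0.08 (FDR = 0.92) and −0.07 (FDR = 0.89), where CXCL8 was 7332 and 3778 CPM in growing and 5599 and 6367 CPM in shHMGA1. HMGA1 was lower in shHMGA1 numbers 5 and 6 than in numbers 1 to 4, as given above, and its part in this was not tested.

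In RIS+shHMGA1 against RIS the 6 ELR genes were higher at the median in RIS+shHMGA1, and fewer passed. With 24 samples edgeR called 0 of the 10 genes, beside 2.55% of all genes, with 5 under an unadjusted p of 0.05. DESeq2 called 0, beside 11.8%, and voom 5, beside 13.9%. Without the 2 libraries 3 were called, all higher, beside 12.5%. CXCL3 was 218 to 714 CPM in RIS and 900 to 2022 CPM in RIS+shHMGA1 (log2 fold change 1.45 ± 0.33, FDR = 0.0029). For CXCL8 it was 1.32 ± 0.35 (FDR = 0.0059), about 2.5-fold, and for CXCL2 0.80 ± 0.22 (FDR = 0.0074). CPM ranges did not overlap for CXCL2, CXCL3, CXCL6 and CXCL8, beside 14.9% of genes. As shares of the total count, without TMM factors, CXCL2 did overlap, at 0.0109% to 0.02% in RIS and 0.0186% to 0.0265% in RIS+shHMGA1. So did CXCL6, at 0.00112% to 0.00154% and 0.00131% to 0.00215%, while CXCL3 and CXCL8 did not.

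With the replicate block, 5 were called in the 22 samples, beside 14.4%: CXCL2, CXCL3 and CXCL8 and, in addition, CXCL5 (1.50 ± 0.22, FDR = 1.5e-04) and CXCL10 (1.16 ± 0.27, FDR = 0.0023). Within numbers 1 to 4 the log2 fold change of CXCL8 was 1.23 (FDR = 6.6e-04), and in numbers 5 and 6 it was 1.39 (FDR = 0.038). CXCL12 was near 0 in both groups, with 23 counts in 5 RIS libraries and 9 in 6 RIS+shHMGA1 libraries. Its log2 fold change was −4.11 ± 1.31 (FDR = 0.025) with RIS replicate 2 and −1.36 ± 0.82 (FDR = 0.19) without.

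Whether the change with 4OHT differed between vector and hairpin cells was tested as an interaction. With 24 samples edgeR called 0 of the 10 genes, beside 0% of all genes, with 5 under an unadjusted p of 0.05 and a smallest FDR among the 10 of 0.43. DESeq2 and voom also called 0 of the 10, beside 0.0374% and 0.0524% of all genes. With 22 samples 0 were called, beside 0.00745% of genes (1 gene), and 0 were under an unadjusted p of 0.05. The interaction of CXCL8 was 2.26 ± 1.00 with 24 samples and 0.27 ± 0.48 with 22, and that of CXCL5 was 4.98 ± 1.78 and −0.70 ± 0.69. The 2 sets of replicate numbers gave values of opposite sign: for CXCL1 −0.96 (FDR = 0.012) in numbers 1 to 4 without the 2 libraries and 0.89 (FDR = 1) in numbers 5 and 6, for CXCL3 −1.19 (FDR = 0.17) and 1.67 (FDR = 0.12), and for CXCL8 −0.78 (FDR = 0.52) and 1.31 (FDR = 1). None of these passed, and the difference between the sets was not tested.

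The choice of scaling bears on the smaller values. Libraries of RIS+shHMGA1 had low TMM factors (the lowest was 0.736), and scaling by total counts moved all log2 fold changes by −0.43 in RIS+shHMGA1 against shHMGA1, by −0.31 in RIS+shHMGA1 against RIS, by −0.39 in the interaction, by 0.09 in shHMGA1 against growing and by −0.04 in RIS against growing, in 24 samples. Under that scaling CXCL10 and CXCL11 in RIS+shHMGA1 against shHMGA1 turned to −0.15 and −0.06, still uncalled, whereas the 6 calls kept their direction. In the 22 samples the shift in RIS+shHMGA1 against RIS was −0.28. There CXCL2 was called at a log2 fold change of 0.80, with a threshold of 0.58, so its call depends on the TMM factors. Calls on total counts were not computed for the 22 samples.

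Numbers 5 and 6 differed from numbers 1 to 4 in ELR chemokine levels, growing replicate 4 and RIS replicate 2 left out. Both lay below all of the others for 5 of the 6 ELR genes in shHMGA1 (not CXCL8), 5 in RIS (not CXCL6) and 4 in RIS+shHMGA1 (not CXCL2 and CXCL6). The share of all genes with such a split was not computed, so these counts are not shown to be particular to the ELR genes. On the first principal component of all tested genes, numbers 5 and 6 also stood apart in RIS (16.85 and 22.15 against 55.96 to 62.07). They did so in RIS+shHMGA1 (52.47 and 58.2 against 78.51 to 84.12) but not in growing and shHMGA1. In shHMGA1, CXCL1 was at 164 and 189 CPM in numbers 5 and 6 and at 342 to 417 CPM in numbers 1 to 4. In growing, CXCL5 alone lay below, while CXCL2, CXCL3 and CXCL8 lay above, CXCL8 at 7332 and 3778 CPM against 1248 to 2440 CPM. In RIS+shHMGA1 they had 43855 and 38650 CPM of CXCL8, and numbers 1 to 4 had 67939 to 82448. For CXCL5 it was 7913 and 6455 CPM against 11235 to 15714 CPM. In RIS, CXCL5 was at 2022 and 1110 CPM in numbers 5 and 6 and at 5779 to 7375 CPM in numbers 1, 3 and 4. CXCL10 went the other way, at 51.9 and 54.6 CPM in RIS+shHMGA1 numbers 5 and 6 and 16.7 to 22.2 CPM in numbers 1 to 4. In RIS it was 14 and 35.6 CPM against 7.94 to 8.29 CPM. The labels give no date or batch for these numbers, and what sets them apart was not tested.

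Some neighbours of the chemokines on chromosome 4 were called in RIS+shHMGA1 against shHMGA1 too. With 24 samples, 39.1% of all 13356 genes were called there, 2615 higher and 2605 lower. Whether neighbours were called more often than other genes was not tested. PF4 and PPBP, the platelet chemokines that lie between CXCL1 and CXCL5, were called higher in RIS+shHMGA1 than in shHMGA1. PF4 was at 0.0615 to 0.589 CPM in shHMGA1 and 1.09 to 2.79 CPM in RIS+shHMGA1 (log2 fold change 2.90 ± 0.63). PPBP had no count in shHMGA1 and 99 counts in RIS+shHMGA1, at least 44.7-fold higher when 3 counts over the group are taken as the floor. PF4V1, which lies between CXCL6 and CXCL1, was below the filter and was not tested. Its median went the other way, from 1.2 CPM in shHMGA1 (0.363 to 1.77) to 0.149 CPM in RIS+shHMGA1 (0 to 0.439), with overlapping ranges. Beyond CXCL2, MTHFD2L (a mitochondrial folate enzyme; 2.91) and EREG (the EGF receptor ligand epiregulin; 1.85) were also called higher with 24 samples, and AREG (amphiregulin) had 0.83 and was called with 22 samples only. Of the 3 tested genes on the other side of CXCL8, COX18 (0.43), ANKRD17 (−0.27) and AFP (0.20), none was called in this comparison. Around CXCL10 and CXCL11, USO1 was higher (0.78) and NAAA (−0.62) and SCARB2 (−0.77) were lower, while SDAD1, NUP54 and STBD1 were not called.

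**Figure D4:**
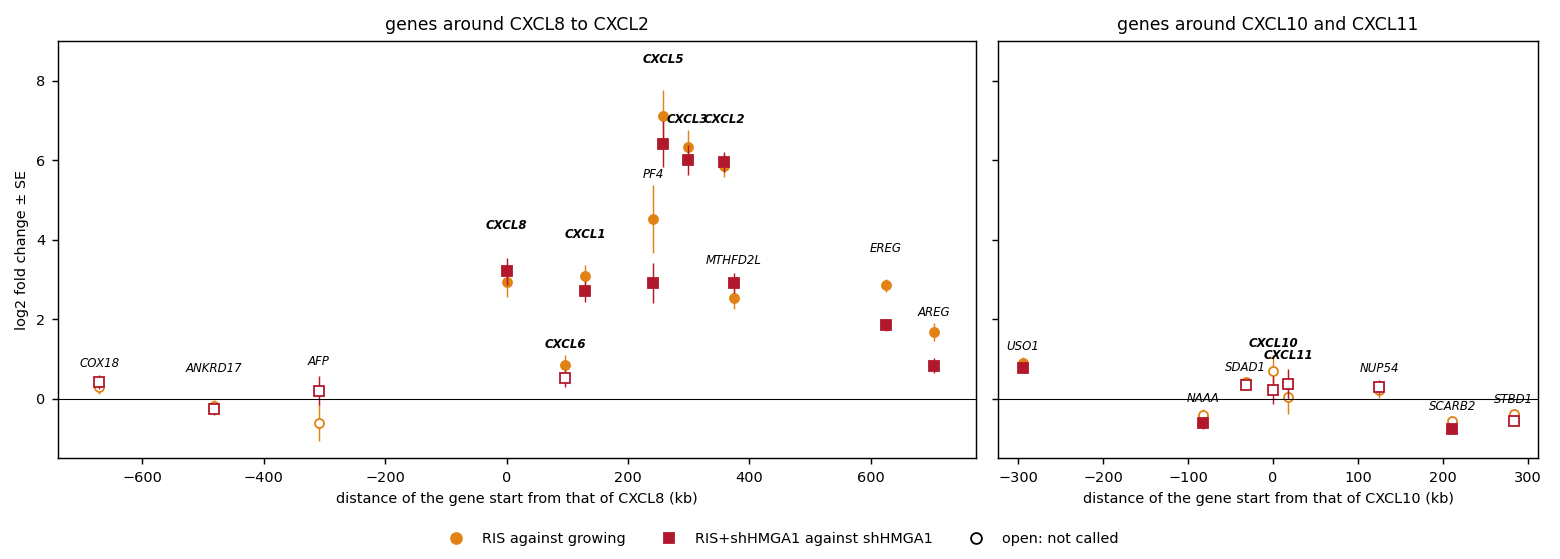
edgeR log2 fold changes with SE (y axis, 22 samples) of the genes in and around the 2 chromosome 4 clusters, by distance of the gene start from that of CXCL8 (left) or CXCL10 (right) in kb (x axis); circles are RIS against growing, squares RIS+shHMGA1 against shHMGA1, and filled points were called. Members are in bold, and PPBP is left out because it had no count in growing and shHMGA1; values exceed 2 in both comparisons for CXCL8, CXCL1, PF4, CXCL5, CXCL3, CXCL2 and MTHFD2L and in RIS against growing for EREG, while CXCL6 (0.84 and 0.51) and the genes around CXCL10 and CXCL11 lie below 1.

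Few of the receptors were detected. CXCR1, CXCR3 and ACKR1 had no count in any of the 24 libraries, CXCR2 had 2 counts, CXCR6 had 15 and CXCR4 had 33 in all. CXCR4 had no count in 5 growing or 6 shHMGA1 libraries and 0.183 to 0.738 CPM in 5 RIS libraries, at least 8.72-fold higher over the group. Of the 2 receptors tested, ACKR3, which takes up CXCL12 and CXCL11, was at 0.0615 to 0.421 CPM in shHMGA1 and 2.41 to 9.47 CPM in RIS+shHMGA1 (log2 fold change 4.41 ± 1.01, called). CXCR5, the receptor of CXCL13, was at most 1.35 CPM and was not called (−0.71 ± 0.33). ACKR3 was therefore higher in the group in which CXCL12 was lower. Among the other CXC ligands, PF4V1 (126 counts in all), CXCL9 (34), CXCL14 (35) and CXCL13 (1) were below the filter and CXCL17 had no count.

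Lists of genes that are known to act on these chemokines are given by their calls in RIS+shHMGA1 against shHMGA1, in 24 samples, where 39.1% of all genes were called, 2615 higher and 2605 lower of 13356. Of 19 regulators of NF-kappaB and IL1, 6 were higher and 4 lower, with a median log2 fold change of −0.21 (all genes: −0.02). IL1B (4.25) and IL1A (3.69), the upstream cytokines of the SASP, led, followed by the NF-kappaB cofactor and feedback genes NFKBIZ (1.22) and TNFAIP3 (1.21). IL1B reached 15566 to 20056 CPM in RIS+shHMGA1 from 627 to 1418 CPM in shHMGA1. Of 11 C/EBP and AP-1 factors tested, 4 were higher and 1 lower (median 0.49): FOSB (1.71), CEBPB (1.1) and FOS (0.99) rose, and FOSL1 (−0.92) fell.

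Beside the same 39.1%, of 9 genes listed as factors of mRNA decay, 2 were higher and 4 lower (median −0.58). The decay factors ZFP36L2 (−1.17) and ZFP36L1 (−0.97) fell, while the endonuclease gene ZC3H12A (1.54) and TRAF3IP2 (0.89), an adaptor of IL17 signalling, rose. Of 14 interferon regulators tested, 2 were higher and 2 lower (median −0.05): IRF2 (1.01) and IFNGR2 (0.75) rose, and IRF1 (−0.79) and TYK2 (−0.74) fell. Of 11 enzymes that process chemokines, 5 were higher and 3 lower (median 0.17). MMP3 (3.75) and MMP1 (2.99) rose, MMP9 had no count in shHMGA1 and was at least 74-fold higher, and SULF1 (−3.16), which edits the heparan sulphate that binds chemokines, fell. In 22 samples the numbers called, higher and lower, were 6 and 4, 5 and 1, 2 and 4, 3 and 2, and 5 and 3 for these 5 lists, beside 44.4% of all genes.

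The genes most like CXCL8 in log2 CPM over the 24 samples were IL6 (Pearson r = 0.989), IL6-AS1 (0.988), RIPK2 (0.987), TRMT10C (0.987) and BPGM (0.983). IL6-AS1 overlaps IL6 on the other strand, and the strand setting of the counting is not given, so these 2 may share reads. Those most like CXCL12 were LMO7 (0.989) and, at 0.987 to 0.986, COL5A2, GAS6, TMEM109 and COL3A1. The 24 libraries form 2 clusters, with growing replicate 4 among the treated and RIS replicate 2 among the untreated libraries, and many genes share that split, so these values describe the 24 libraries only. Among the members, r with CXCL8 was 0.92 to 0.96 for CXCL1, CXCL2, CXCL3 and CXCL5, 0.75 for CXCL6, 0.43 for CXCL10 and −0.93 for CXCL12.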

How the data were processed

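RNA-seq was made from 24 IMR90 cultures in 4 groups of 6 (TruSeq stranded mRNA, HiSeq-2500). The authors trimmed reads with cutadapt 1.10.0, aligned them to hg19 with STAR 2.5.0b and deposited raw counts per Entrez gene from Rsubread; its version, annotation and strand setting are not given in the sources used here. Of 25702 identifiers, 23696 had a symbol. Groups came from the labels. Labels call the 6 samples of a group biological replicates but do not say whether each was a separate infection, so p-values measure the spread between these samples.

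All 24 samples were fitted in edgeR 4.0.16 (R 4.3.3; filterByExpr, TMM, quasi-likelihood test, 4 group means) and FDR is the Benjamini-Hochberg adjusted p over all genes tested. Called means FDR under 0.01 with an absolute log2 fold change over 0.58. CPM were computed with TMM factors. For log2 CPM the prior count was 2. Total counts of 8698070 to 23103424 per sample limit the precision of genes under about 1 CPM. The fit was checked on simulated counts, for RIS+shHMGA1 against shHMGA1 only, with the same dispersion for every gene and no library against its label. That check cannot show how the fit behaves when libraries stand apart from their labels.

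The 10 genes and all lists were chosen with earlier results of these data known. All 10 are named in each comparison. All receptors and other CXC ligands are named, and up to 4 called genes with the largest change of each other list. Neighbours on chromosome 4 are the genes within each cluster and 3 tested genes on each side. Likeness is given for the 5 genes of highest Pearson r with CXCL8 and with CXCL12. Transcript lengths and positions are from the GENCODE annotation of GRCh37, and promoters from RefSeq.

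Pairing was checked by correlating same-numbered samples' deviations from their group means. With 24 samples no comparison had every correlation over 0.1. Without growing replicate 4 and RIS replicate 2 they were 0.23 to 0.54 in shHMGA1 against growing and 0.27 to 0.63 in RIS+shHMGA1 against RIS, so the fit with the replicate number as a block is given there. Alternatives were each replicate number left out, other normalisations, filters and thresholds, DESeq2 1.42.0 and limma 3.58.1 voom. The 2 libraries left out, the subsets of replicate numbers and the block without the 2 libraries were all chosen after seeing the data.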

Additional observations from a re-analysis of the deposited data

Results flagged for a closer look

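Of 40 sets of 6 samples (10 genes in 4 groups), 9 had an end sample whose gap to its nearest neighbour exceeded Dixon's 95% critical value for 6 samples as a share of the range, and chance alone gives about 1 in 20. All 9 lay in growing replicate 4 or RIS replicate 2. The 40 sets share the same libraries and many of the genes vary together, so the 9 are not independent of each other. Growing replicate 4 stood above the other growing samples for CXCL1 (2124 CPM), CXCL2 (212 CPM), CXCL3 (952 CPM) and CXCL5 (8425 CPM), and below them for CXCL12 (0 CPM). RIS replicate 2 stood below the other RIS samples for CXCL1 (141 CPM), CXCL2 (2.36 CPM), CXCL3 (5.35 CPM) and CXCL8 (1474 CPM).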

How the results depend on the processing

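Of 99 alternative counts of genes called, 80 were within 1.5 times the main count or equal to it and 19 were higher. The count in RIS+shHMGA1 against shHMGA1 was 5 to 7 throughout and 6 whichever replicate number was left out. DESeq2 gave 5, its adjusted p for CXCL12 being NA, as were 5 others of its values for CXCL12 and CXCL16, which were left out. No setting called a gene for the interaction. The main count in the other 3 comparisons was 0. In RIS against growing it was 7 without growing replicate 4 and RIS replicate 2, beside 39.7% of all genes. It was 7 with the replicate block in those 22 samples, beside 2573 genes higher and 2673 lower of 13416. By limma voom it was 7, beside 47.3%. In numbers 5 and 6 only it was 6, and in numbers 1 to 4 without the 2 libraries 8. With 1 replicate number left out it was 0 to 5 (1 without number 2 and 5 without number 4). In shHMGA1 against growing it was 1 without the 2 libraries (beside 2.59% of all genes), 4 by voom (6.33%) and 8 in numbers 1 to 4. In RIS+shHMGA1 against RIS it was 3 without the 2 libraries (beside 12.5% of all genes) and 5 by voom (13.9%). It was 2 at an FDR of 0.05, 3 in numbers 5 and 6 and 4 in numbers 1 to 4. For the other settings the share of all genes is not given, so those counts have no background beside them. Beyond the 2 libraries, the cause of these differences was not tested.

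With the replicate block in all 24 samples, 1 gene was called in shHMGA1 against growing and 1 in RIS+shHMGA1 against RIS. Over all 13356 genes, 36 and 1637 were called there. With 24 samples the numbers were not shown to pair the samples. With 22, same-numbered samples deviated together in both hairpin comparisons but not throughout the others. Whether this reflects pairing of each number or the split of numbers 5 and 6 from numbers 1 to 4 was not tested. In the 22 samples the block gave 3 and 5, beside 3.61% and 14.4% of all genes, and changed the number called in no other comparison.

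Log2 fold changes that turned sign were uncalled in the main fit. In shHMGA1 against growing, the values without the 2 libraries, in numbers 1 to 4, with the block in 22 samples and by voom were 0.98, 1.41, 0.78 and 1.08 for CXCL1, 0.71, 1.45, 0.62 and 0.76 for CXCL2, 1.78, 2.40, 1.50 and 1.73 for CXCL3, 1.98, 2.04, 1.73 and 1.69 for CXCL5, and 1.05, 2.01, 1.00 and 1.45 for CXCL8. With the block in 24 samples CXCL1 was 0.09, CXCL5 0.26 and CXCL8 0.20. In numbers 5 and 6, CXCL3 was 0.36, CXCL5 1.07, CXCL8 0.08 and CXCL11 −0.73. With 1 number left out the ranges were −0.92 to 0.88 (CXCL1), −3.32 to 0.56 (CXCL2), −3.33 to 1.57 (CXCL3), −3.90 to 1.79 (CXCL5) and −0.91 to 0.92 (CXCL8), each positive without number 4.

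In RIS against growing, CXCL11 was 0.05 without the 2 libraries and 0.24 in numbers 1 to 4, and with 1 number left out CXCL10 was −0.08 to 0.65 and CXCL11 −0.69 to 0.21. In RIS+shHMGA1 against shHMGA1, CXCL10 was −0.15 on total counts, −0.49 in numbers 1 to 4, −0.24 by voom and −0.03 to 0.52 with 1 number left out, and CXCL11 was −0.06 on total counts. In RIS+shHMGA1 against RIS, CXCL12 was 0.60 in numbers 1 to 4, on at most 1 count per library in RIS, and 0.05 by voom, and CXCL16 was −0.01 in numbers 1 to 4. CXCL12 was not tested there when the fit held the samples of that comparison only.

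For the interaction, values without the 2 libraries were −0.38 (CXCL1), −0.33 (CXCL3), −0.70 (CXCL5) and −0.34 (CXCL6). In numbers 1 to 4 they were −0.96 (CXCL1), −0.87 (CXCL2), −1.19 (CXCL3), −1.06 (CXCL5), −0.64 (CXCL6), −0.78 (CXCL8), −0.12 (CXCL11) and 1.71 (CXCL12). With the block in 22 samples they were −0.18 (CXCL1), −0.23 (CXCL5) and −0.27 (CXCL6). By voom they were −0.55 (CXCL1), −0.02 (CXCL2), −0.37 (CXCL3), −0.48 (CXCL5), −0.32 (CXCL6), −0.15 (CXCL8) and 0.83 (CXCL12). CXCL6 was −0.29 on total counts, and in numbers 5 and 6 CXCL10 was 0.23 and CXCL16 0.71. With 1 number left out the ranges were −0.07 to 5.62 (CXCL5), −0.15 to 0.26 (CXCL6), −0.61 to 0.05 (CXCL10) and −0.38 to 0.07 (CXCL16). The cause was not tested.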

Other observations

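CXCL10 and CXCL11, which share an interferon-driven class, had a Pearson r of 0.74 with each other over the 24 samples in log2 CPM, while CXCL10 had an r of 0.23 to 0.43 with CXCL1, CXCL2, CXCL3, CXCL5, CXCL6 and CXCL8. CXCL1, CXCL2, CXCL3 and CXCL5 had values of 0.97 to 0.99 with each other. The libraries form 2 clusters, with growing replicate 4 among the treated and RIS replicate 2 among the untreated ones, so these values are a description only.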
